A study of Mus musculus with 2 samples.

Results

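The cartilage collagens are described here through 8 genes, Col2a1, Col9a1, Col9a2, Col9a3, Col10a1, Col11a1, Col11a2 and Col27a1, which were taken by symbol from the 32288 features counted in a single-cell RNA sequencing (scRNA-Seq) study of mouse periosteum. The mouse arm of that study held 2 libraries of 1 condition, called library 1 and library 2 after their replicate numbers, and no treated or mutant group. Both came from femur and tibia periosteum of C57BL6 mice at 4 weeks of age with the genotype given as WT, and the cells had been sorted to leave out the CD45, CD31 and Ter-119 fractions, which are leukocytes, endothelial cells and red cells. The number of mice behind each library was not given in the sources used here, so biological and technical spread between the libraries cannot be told apart. The study asked which periosteal cells are skeletal stem cells (P-SSCs), and the comparison made here is between the cell classes of these 2 libraries.

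Collagens are trimers of chains wound into a triple helix. In hyaline cartilage, fibrils of type II collagen (Col2a1) carry type XI collagen (Col11a1, Col11a2 and a Col2a1-derived chain) within them and type IX collagen (Col9a1, Col9a2, Col9a3) on their surface, while type X collagen (Col10a1) is the short-chain collagen of hypertrophic chondrocytes in the growth plate and Col27a1 encodes a fibrillar collagen of cartilage. The growth plate moves chondrocytes from a proliferating state with Col2a1 to a hypertrophic state with Col10a1, so the 2 genes are the usual pair by which the states are told apart.

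All 8 members were in the gene table, and each of their 8 Ensembl identifiers matched GENCODE M21. On GRCm38 (mm10) Col2a1 lies at chr15:97975602-98004695 on the minus strand, and the other members lie on the plus strand, with Col9a1 at chr1:24177610-24252684, Col9a2 at chr4:121039385-121055322, Col9a3 at chr2:180597790-180622189, Col10a1 at chr10:34389981-34397085, Col11a1 at chr3:114030540-114220718, Col11a2 at chr17:34039437-34066685 and Col27a1 at chr4:63214004-63334991. All are annotated as protein coding. Col10a1 has 1 annotated transcript with 3 exons and lies inside Nt5dc1, which is on the opposite strand and shares 18 exonic bases with it. Col9a3 overlaps the end of Tcfl5 on the opposite strand over 234 exonic bases, and Col27a1 holds the microRNA gene Mir455 on its own strand.

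RefSeq promoter sequences on GRCm38.p6 were matched for 6 of the 8 members. The 250 bases before the start are shown for 3 of them, Col10a1 because its level set it apart from the other members, and Col11a1 and Col11a2 because they were the members with high levels outside cartilage-like cells. Capitals mark matches, on either strand, to 5 short motifs. These were TATAAA, which the TATA-binding protein recognises, the SOX core letters ACAAAG and ACAAT, the RUNX letters ACCACA and the AP-1 letters TGANTCA. Among 32851 promoter windows of this length, 12.4% held TATAAA, 16.5% ACAAAG, 27.7% ACAAT, 14% ACCACA and 6.75% TGANTCA.
Col10a1, chr10:34389731-34389980, plus strand: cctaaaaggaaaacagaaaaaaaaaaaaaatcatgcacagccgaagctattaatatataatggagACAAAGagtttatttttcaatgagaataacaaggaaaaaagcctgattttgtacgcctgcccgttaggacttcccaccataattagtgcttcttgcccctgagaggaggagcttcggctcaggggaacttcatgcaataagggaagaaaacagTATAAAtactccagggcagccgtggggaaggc
Col11a1, chr3:114030290-114030539, plus strand: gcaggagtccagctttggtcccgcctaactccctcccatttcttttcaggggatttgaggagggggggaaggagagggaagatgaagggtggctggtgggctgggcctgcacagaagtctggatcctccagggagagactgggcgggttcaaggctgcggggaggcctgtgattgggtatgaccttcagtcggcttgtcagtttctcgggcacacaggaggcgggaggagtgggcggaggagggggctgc
Col11a2, chr17:34038888-34039137, plus strand: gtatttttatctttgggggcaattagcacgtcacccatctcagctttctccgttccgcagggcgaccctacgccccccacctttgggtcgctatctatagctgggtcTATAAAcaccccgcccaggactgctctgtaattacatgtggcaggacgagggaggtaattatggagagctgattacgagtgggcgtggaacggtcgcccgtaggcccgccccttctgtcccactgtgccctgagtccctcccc
The Col10a1 window held TATAAA beginning 32 bases before the start and ACAAAG beginning 185 bases before it. In the Col11a2 window TATAAA began 143 bases before the start, and the Col11a1 window held none of these letters. A match is a description of the letters only. RefSeq's start of Col11a2 lies upstream of the GENCODE start given above.

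Library 1 held 9932 barcodes and 100808649 unique molecular identifiers (UMIs, each standing for 1 captured transcript), and library 2 held 3659 barcodes and 33306452 UMIs. At 500 genes, 500 UMIs and no more than 10% mitochondrial UMIs, 6276 and 2893 cells were kept, with medians of 8164 and 6279 UMIs. Although the sort left out blood cells, 5828 and 1769 of the kept cells fell in hematopoietic clusters, and the analysis of the members rests on the other 448 cells of library 1 and 1124 of library 2. The libraries shared 8 barcodes. Library 2 also went against its WT label, since it held 6837 UMIs of the EGFP feature, against 0 in library 1, and both libraries held tdTomato UMIs (1482 and 4627). Levels are therefore given for each library on its own. The edgeR tests below take both libraries as replicates, so this difference lies inside their spread.

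The stromal cells were clustered with the 8 members and the 4 lists of related genes described below held out of the clustering genes. The marker lists that name a cluster include none of the members. However, the non-hypertrophic name was refused to a cluster with Col10a1 or Spp1 among its 10 leading genes. The class that carried most cartilage transcripts, non-hypertrophic chondrocyte-like, held 27 cells of library 1 and 120 of library 2 and 11 of its 12 markers, a list that includes Acan, the aggregating proteoglycan of cartilage. It also held 5 of the 7 hypertrophic markers, none of them among its 10 leading genes, where 3 of its own list stood. The cells richest in Col10a1 fell in 2 clusters that stay named by their leading genes. Col10a1-led cells (69 and 74) held 4 of the 12 non-hypertrophic and 1 of the 7 hypertrophic markers, none among the 10 leading genes. Col10a1 and Spp1 stood among those 10, so that rule kept these cells out of the chondrocyte-like class. The low Col10a1 of that class is partly set by it. Tcim-led cells (17 and 48) held 1 of 12 and 2 of 7. The hypertrophic name was therefore given to no cluster. Col10a1-led cells had few genes detected, with a median of 1071 and 1342.5 genes per cell against 4599 and 5037 in Tcim-led and 5017 and 4583 in chondrocyte-like cells, and their level of Malat1, a nuclear RNA, was 545 CPM (UMIs of a gene scaled to the same total of all UMIs of its class) in library 1 and 4475 in library 2 against 28368 and 14869 in Tcim-led cells. Msmp-led cells (77, all of library 2) carried Prg4, the lubricin gene, at 52399 CPM.

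Col2a1, the chain of type II collagen, was highest in the chondrocyte-like class in both libraries. It stood there at 51346 CPM in library 1 and 39120 in library 2, with every cell of the class positive. Col10a1-led cells followed at 20369 and 15125 CPM, and Tcim-led cells at 6072 and 3854. Msmp-led cells of library 2 stood at 14866 CPM (exact Poisson 95% interval 14608 to 15128), which did not differ from the Col10a1-led cells of that library (14807 to 15449) beyond counting error. Osteoblast-like cells (87 and 167) stood at 94.8 and 95.5 CPM, and in library 1 a single cell held 111 of their 230 UMIs. In library 2 the 3 richest cells held 61.0% of 282 UMIs. The median osteoblast-like cell had 0 UMIs in both libraries, and without the richest cell the class stood at 49.6 and 69.4 CPM. In P-SSC-like cells (19 and 287) Col2a1 was at 0 of 245398 UMIs in library 1, where 3 counts would be 12.2 CPM, and at 9.17 CPM in library 2. B cell-like cells, which should lack the gene, gave 10.3 and 17.6 CPM and a Col2a1 UMI in 6.31% and 7.06% of cells at median depths of 3506 and 3757 UMIs, so the P-SSC-like value is at the level of background.

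**Figure D1:**
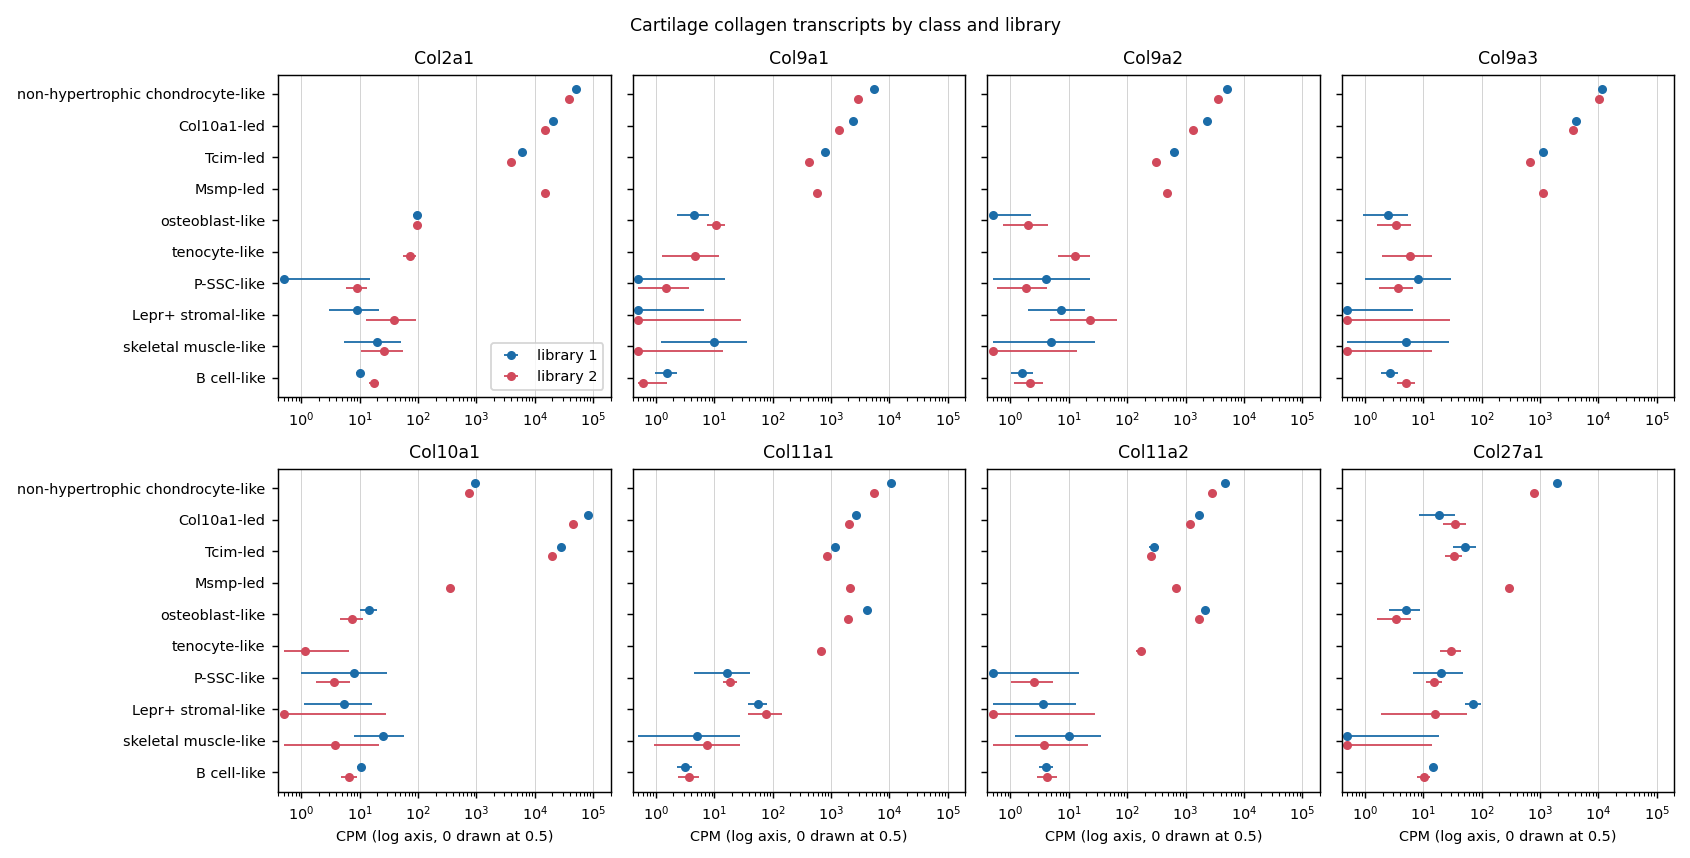
Level of each of the 8 genes in CPM (log axis, values of 0 drawn at 0.5) for classes with at least 10 cells in a library. Points are the class sums of library 1 (blue) and library 2 (red), and bars the exact Poisson 95% interval. B cell-like cells show the background, but not for Col27a1, where they stood above erythroid-like cells in both libraries. Col2a1 goes from 51346 and 39120 CPM in chondrocyte-like to 94.8 and 95.5 CPM in osteoblast-like cells, Col11a1 is still at 4178 and 1960 CPM there, and Col10a1 peaks at 82057 and 45034 CPM in Col10a1-led cells.

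The type IX genes encode the 3 chains of a collagen that sits on the surface of type II fibrils, and all 3 were highest where Col2a1 was. In chondrocyte-like cells of library 1 and library 2, Col9a1 stood at 5405 and 2967 CPM, Col9a2 at 5154 and 3625 and Col9a3 at 11455 and 10156. All 3 lay between 0.412 and 10.8 CPM in osteoblast-like cells. The highest of these values, Col9a1 in library 2 (7.41 to 15.3 CPM), was above the 0.612 CPM (0.167 to 1.57) of B cell-like cells of that library. Col9a3 UMIs per Col2a1 UMI were 0.223 and 0.260 in chondrocyte-like cells, 0.206 and 0.238 in Col10a1-led cells and 0.182 and 0.175 in Tcim-led cells. Msmp-led cells departed from this, with 0.0750 (exact 95% interval 0.0702 to 0.0802) against 0.260 (0.257 to 0.263) in chondrocyte-like cells of the same library. In library 2, chondrocyte-like cells exceeded Msmp-led cells by 2.63-fold in Col2a1 (2.58 to 2.68), by 5.10-fold in Col9a1 (4.66 to 5.60), by 7.41-fold in Col9a2 (6.72 to 8.19) and by 9.10-fold in Col9a3 (8.53 to 9.72). These intervals do not overlap that of Col2a1 but cover counting error in 1 library only.

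Type XI collagen, which forms the core of cartilage fibrils, was the exception among the fibrillar members. Osteoblast-like cells held Col11a1 at 4178 CPM in library 1 and 1960 in library 2, and Col11a2 at 2190 and 1670 CPM. Chondrocyte-like cells held Col11a1 at 10520 and 5498 CPM and Col11a2 at 4756 and 2896 CPM, so the classes did not overlap but lay close. The signal was spread over osteoblast-like cells, since 98.9% and 98.8% of them had a Col11a1 UMI, and the richest cell held no more than 3.62% of the UMIs of the gene. Osteoblast-like cells supplied 45.9% and 18.4% of all stromal Col11a1 UMIs and 48.9% and 28.0% of Col11a2 UMIs, against 0.381% and 0.165% of Col2a1 UMIs. Tenocyte-like cells of library 2 also held Col11a1, at 666 CPM (612 to 723), with Col2a1 at 73.3 CPM. In P-SSC-like cells Col11a1 was 16.3 and 18.7 CPM. Osteoblast-like and Col10a1-led cells were neighbours in Col11a1, with a ratio of Col10a1-led over osteoblast-like of 0.649 (0.612 to 0.687) in library 1 and 1.03 (0.964 to 1.10) in library 2, where they did not differ beyond counting error. There were 0.524 and 0.852 Col11a2 UMIs per Col11a1 UMI in osteoblast-like cells against 0.452 and 0.527 in chondrocyte-like cells.

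**Figure D2:**
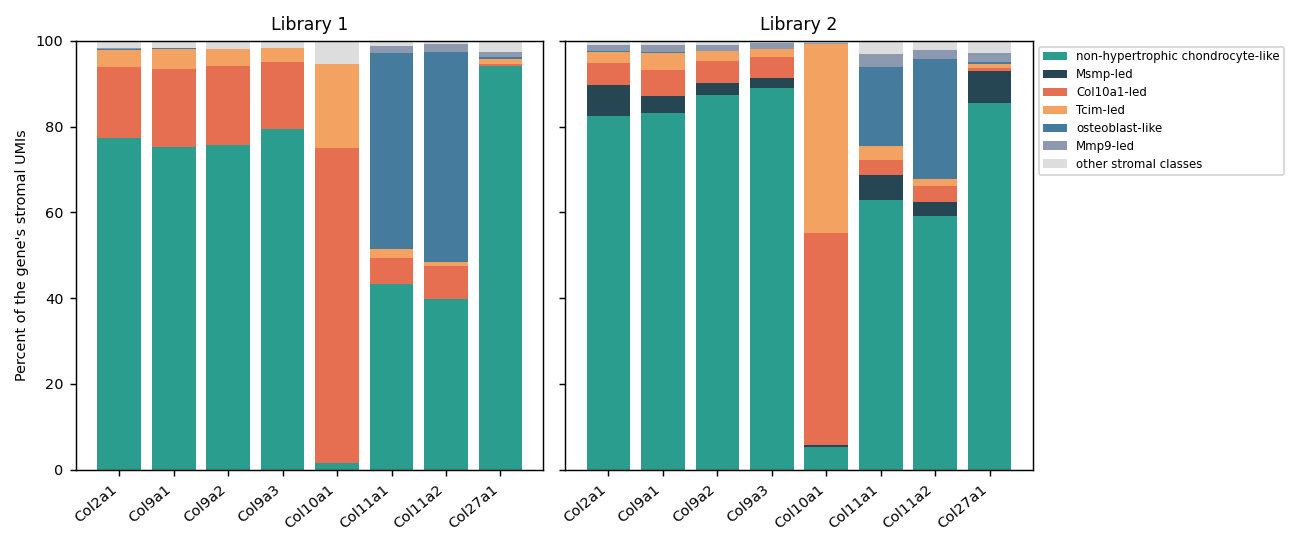
Share of the stromal UMIs of each gene, in percent, that came from each class, by library; the bars are stacked and add up to 100%. Chondrocyte-like cells supplied 77.3% and 82.3% of Col2a1, osteoblast-like cells 45.9% and 18.4% of Col11a1, and Col10a1-led cells 73.4% and 49.4% of Col10a1.

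Col27a1, a fibrillar collagen of cartilage, had 94.2% of its stromal UMIs in chondrocyte-like cells in library 1, the highest share among the members, and 85.5% in library 2, where Col9a3 (88.9%) and Col9a2 (87.3%) were above it. It stood there at 1965 CPM in library 1 and 793 in library 2. In Col10a1-led cells it was 18.3 and 35.3 CPM, and in Tcim-led cells 52.0 and 32.9. Chondrocyte-like cells exceeded Tcim-led cells by more in Col27a1 than in Col2a1, by 37.8-fold (24.4 to 62.0) against 8.46-fold (8.11 to 8.82) in library 1 and by 24.1-fold (17.5 to 34.1) against 10.1-fold (9.85 to 10.5) in library 2. From chondrocyte-like to Col10a1-led cells the folds were 107 (56.5 to 235) and 22.5 (14.5 to 36.8) for Col27a1 against 2.52 and 2.59 for Col2a1. Msmp-led cells, all of library 2, had 0.0197 Col27a1 UMIs per Col2a1 UMI (0.0173 to 0.0224). Chondrocyte-like cells had 0.0203 (0.0195 to 0.0210) in that library and 0.0383 (0.0365 to 0.0401) in library 1. Lepr+ stromal-like cells showed 71.7 CPM in library 1. Their 15.6 CPM in library 2 rests on 2 UMIs in 18 cells, fewer than 3 counts, and is not read as a level. The study names a Lepr+ cluster among its mouse P-SSCs. In blood cells Col27a1 did not keep 1 ratio to Col2a1. B cell-like cells had 209 and 66 UMIs, or 142 and 57.4 per 100 Col2a1 UMIs, against 3.55 and 1.82 per 100 in erythroid-like cells. As levels these were 14.6 and 10.1 CPM against 0.612 and 1.10. The B cell-like level of Col27a1 is therefore not taken as background. Col10a1 did not keep 1 ratio either, with 103 and 37.4 per 100 Col2a1 UMIs in B cell-like cells and 257 and 5.45 in erythroid-like cells.

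The chondrocyte-like class was tested against the osteoblast-like and the P-SSC-like class on UMI sums per library and class (edgeR quasi-likelihood test, 2 sums per class, Benjamini-Hochberg adjustment over 9700 genes). The same fit also held the skeletal muscle-like and Lepr+ stromal-like sums, so the spread behind each p-value is estimated over all of these classes. Against osteoblast-like cells 6 of the 8 members were higher and none lower, where 5.96% of all genes tested were higher and 5.76% lower. The log2 fold change was 8.81 (SE 1.01) for Col2a1, with an edgeR adjusted p of 0.000183, and between 8.97 and 11.72 for the 3 Col9 genes. It was 8.26 (SE 0.74) for Col27a1. The 2 members that did not pass were Col11a1, at 1.30 (SE 0.52, edgeR adjusted p = 0.158), and Col11a2, at 0.90 (SE 0.52, edgeR adjusted p = 0.354). Changes of this size were mostly missed in simulated data, as given at the end, so no equality is read from this. Both genes were higher in the chondrocyte-like class in each library, by 2.52-fold and 2.81-fold for Col11a1 and by 2.17-fold and 1.73-fold for Col11a2. Over the alternatives tried, the edgeR or DESeq2 adjusted p ran from 0.0597 to 0.377 for Col11a1 and from 0.120 to 0.460 for Col11a2.

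Col10a1 was also called against osteoblast-like cells, at 6.20 (SE 0.64, edgeR adjusted p = 5.39e-05), from 954 and 755 CPM in chondrocyte-like against 14.4 and 7.45 CPM in osteoblast-like cells. This rests on few cells. In library 1, 1 chondrocyte-like cell held 678 of the 867 Col10a1 UMIs and the class stood at 220 CPM without it, and the median cell of the class had 0 UMIs in both libraries. The call was lost when the members and lists were left among the clustering genes (log2 fold change 3.97, edgeR adjusted p = 0.252), and it held in the other 10 of 11 alternatives, whose adjusted p went down to 1.64e-25.

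Against P-SSC-like cells all 8 members were higher, where 9.49% of all genes tested were higher and 12.8% lower. This class pools 2 clusters named from 1 list of 10 markers, which includes Pi16, Ly6a and Cd34. The cluster led by Pi16 (15 and 171 cells) held 10 of them, 6 among its 10 leading genes. The other (4 and 116 cells), led by Mfap4, held 8, none among its 10 leading genes. Prx1, LRP1 and CD13, by which the study describes its mouse P-SSCs, were not among the markers, so the class may not match those cells. The edgeR log2 fold changes ran from 6.76 (SE 0.70) for Col27a1 to 12.98 (SE 1.21) for Col2a1, and Col11a1 and Col11a2 were at 9.20 (SE 0.75) and 11.04 (SE 0.85). The P-SSC-like counts behind these folds are near 0, so the fitted values depend on the prior count and are no bounds. Taken as counts, Col2a1 had 0 UMIs in P-SSC-like cells of library 1, and the exact lower limit of its fold there was 3416. Set against a floor of 3 counts over the class, that fold was 4200, which is not a bound. In library 2 Col2a1 was 4268-fold higher (2891 to 6596). The P-SSC-like level there, 9.17 CPM, was below the 17.6 CPM of B cell-like cells, so this fold is taken over a background level. P-SSC-like cells of library 1 numbered only 19.

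**Figure D3:**
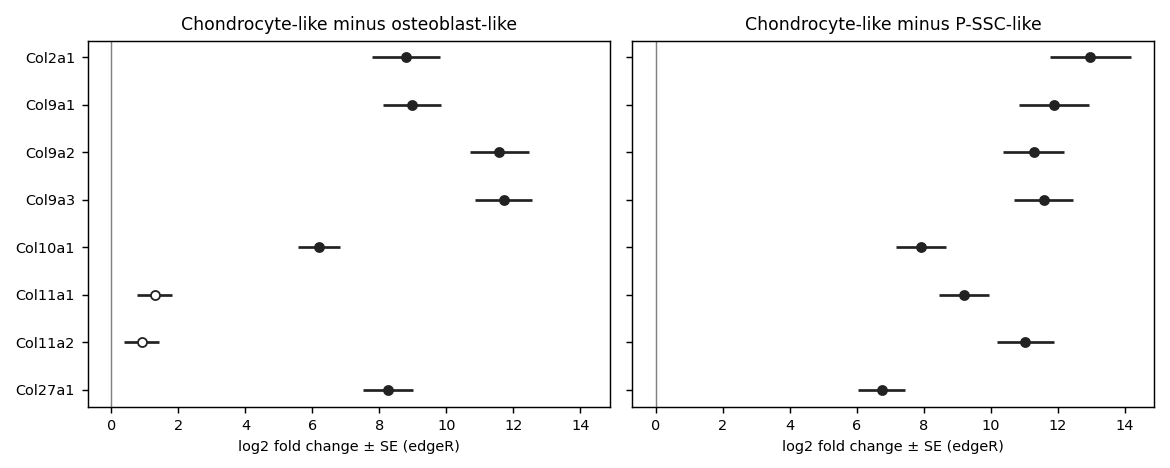
Log2 fold change of each gene (edgeR, points) with its standard error (bars) for chondrocyte-like minus osteoblast-like cells (left) and minus P-SSC-like cells (right), from sums of 2 libraries per class; filled points have an adjusted p under 0.05 and the line marks 0. Col11a1 (1.30) and Col11a2 (0.90) are the open points on the left, and all 8 points on the right are filled.

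Col10a1, the type X gene, had its highest level in Col10a1-led cells, at 82057 CPM in library 1 and 45034 in library 2. Since the cluster is named for this gene, that is a description. A rule that reads Col10a1 and Spp1 kept the cluster out of the chondrocyte-like class, so that contrast is a description too. Tcim-led cells stood at 27845 and 19738 CPM. Col10a1-led and Tcim-led cells supplied 73.4% and 19.5% of stromal Col10a1 UMIs in library 1 and 49.4% and 44.1% in library 2, against 1.58% and 5.24% from chondrocyte-like cells. Each captured transcript gives 1 UMI whatever its length, but capture may differ between genes. The ratio of Col10a1 to Col2a1 UMIs is therefore compared between classes only. There were 4.03 and 2.98 Col10a1 UMIs per Col2a1 UMI in Col10a1-led cells and 4.59 and 5.12 in Tcim-led cells, against 0.0186 and 0.0193 in chondrocyte-like cells. Spp1, osteopontin, was high in the same cells, but that rule reads it, so this too is a description. Mmp13, a collagenase of hypertrophic cartilage, was also high there. Mmp13 stood at 3835 and 1514 CPM in Col10a1-led and 3410 and 1509 in Tcim-led cells against 1.10 and 6.41 in chondrocyte-like cells. It is 1 of the 7 hypertrophic markers, of which chondrocyte-like cells held 5, Col10a1-led cells 1 and Tcim-led cells 2. EGFP was among the 10 leading genes of the Col10a1-led cluster and was not held out of the clustering genes. The EGFP UMIs of library 2 fell in the Col10a1-led and Tcim-led clusters as well, 69.4% of them in the 2 together. Their part in the result was not tested.

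The 2 Col10a1-rich clusters differed in Sox9, the transcription factor that drives Col2a1. Chondrocyte-like cells held Sox9 at 1027 and 639 CPM and Tcim-led cells at 390 and 311. Col10a1-led cells had 0 Sox9 UMIs in 69 cells of library 1, where the exact Poisson interval reaches 7.50 CPM, and 24.7 CPM in library 2. Their Col2a1 was nonetheless 3.35-fold (3.21 to 3.51) and 3.92-fold (3.78 to 4.07) that of Tcim-led cells. The low gene number and low Malat1 of Col10a1-led cells given above move with this difference, and so does hemoglobin in library 1 (14552 CPM against 1669 in Tcim-led cells), though not in library 2 (199 against 159). Their part in the result was not tested.

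Most cells with Col10a1 also held Col2a1, while many cells with Col2a1 held no Col10a1. With 3 or more UMIs as the mark of a positive cell, library 1 had 88 stromal cells with both genes, 42 with Col2a1 alone and 7 with Col10a1 alone, and library 2 had 143, 196 and 14. Thus 92.6% and 91.1% of Col10a1 cells also held Col2a1, while 67.7% and 42.2% of Col2a1 cells held Col10a1. Without the Col10a1-led cluster, an exclusion chosen after seeing the data, 79.3% of the Col10a1 cells of library 1 still held Col2a1. Thinned to 2000 UMIs per cell the share was 74.0% in library 2. Across blood cells of the B cell-like class, 6.54% and 3.57% had any Col10a1 UMI.

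In cells with 20 or more UMIs of the pair, few had a share of Col10a1 between 0.05 and 0.2. Of 113 such cells in library 1, 29 had a share up to 0.05, none lay between 0.05 and 0.2, 38 between 0.2 and 0.8, 44 between 0.8 and 0.95 and 2 above. A count of 0 allows up to 3.21% of cells in the empty range (exact binomial). Of 304 cells in library 2, the counts in the same order were 170, 9, 53, 51 and 21. Of these ranges, that from 0.05 to 0.2 thus held the fewest cells in library 2 too, and 8 of its 9 cells were chondrocyte-like. The ranges differ in width, so their counts do not show where along the share cells are sparsest. The low end was made of chondrocyte-like cells (26 of 29 and 110 of 170) and, in library 2, of 48 Msmp-led cells. The median share was 0.813 and 0.798 in Col10a1-led cells and 0 in chondrocyte-like cells of both libraries. In Tcim-led cells the quartiles were 0.651 and 0.910 in library 1 and 0.781 and 0.928 in library 2.

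**Figure D4:**
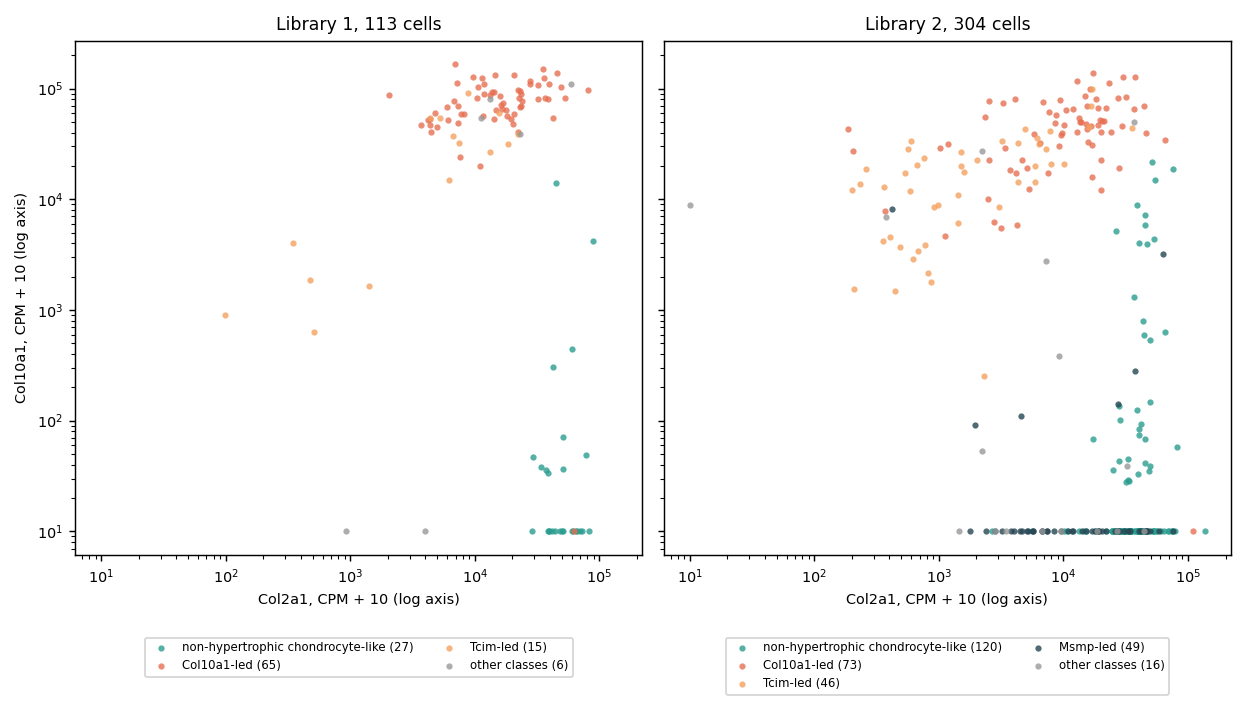
Col10a1 against Col2a1 in each stromal cell with at least 20 UMIs of the 2 genes together, as CPM plus 10 on log axes, for library 1 (113 cells) and library 2 (304 cells), coloured by class with the number of cells in the key. Chondrocyte-like cells lie along the bottom at high Col2a1 with a few rising to the upper right, Col10a1-led and Tcim-led cells lie in the upper part, and Tcim-led cells extend to low Col2a1, with a median of 1411 CPM in library 2 against 12936 in Col10a1-led cells.

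The direction of the relation depended on which cells were taken. Over all cells with 20 UMIs of the pair, the Spearman correlation of their CPM was -0.217 (n = 113 cells) in library 1 and -0.378 (n = 304 cells) in library 2. Taking cells by the sum of the 2 genes leaves out cells low in both, which by itself can make the correlation negative. No conclusion is drawn from its sign. Within Col10a1-led cells it was 0.341 (65 cells) and 0.375 (73 cells), and within Tcim-led cells 0.646 (15 cells) and 0.631 (46 cells). Within chondrocyte-like cells it was -0.0278 (27 cells) and 0.237 (120 cells). In library 2 it was -0.0473 within Msmp-led cells (49 cells) and -0.252 within S100a9-led cells (8 cells). The cells of a library share its depth and its free RNA, and on the log2 scale the Pearson value in Col10a1-led cells was -0.09 and 0.09, so these are descriptions with no test. Among chondrocyte-like cells, 4 of 27 and 18 of 120 had 3 or more Col10a1 UMIs, and all of them also had Col2a1.

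Cells were then grouped by their Col10a1 share, which uses Col2a1 and Col10a1 themselves, and the other members were compared between the groups. From the cells with a share up to 0.05 to those between 0.8 and 0.95, Col9a3 went from 11132 to 2267 CPM in library 1 and from 8560 to 1204 in library 2. Col11a1 went from 10317 to 1690 CPM and from 4980 to 1184 CPM. Col27a1 had the widest range of these, from 1861 to 26.0 CPM in library 1 and from 700 to 24.8 in library 2. In cells with a share between 0.2 and 0.8 it was at 178 and 91.9 CPM. The 178 CPM of library 1 came from 69 UMIs in 7 of 38 cells, of which 1 of the 38 was chondrocyte-like. All Col10a1-led and Tcim-led cells of library 1 held only 9 and 20 Col27a1 UMIs, so that value is not read as a level of the group. Ihh, the signal of prehypertrophic cells, was 256, 36.2 and 96.1 CPM at shares up to 0.05, from 0.2 to 0.8 and from 0.8 to 0.95 in library 1, and 86.6, 187 and 231 CPM in library 2, so the group with the lowest share was the highest of the 3 in library 1 and the lowest in library 2. The library 1 values rest on few cells, since 13 of 29, 6 of 38 and 3 of 44 had an Ihh UMI. Pth1r, the receptor of parathyroid hormone-related protein, was lower at 0.8 to 0.95 than at the low end in both, at 108 against 2191 CPM and 197 against 835 CPM, though the 9 cells between 0.05 and 0.2 in library 2 stood at 2734 CPM. The groups also differ in class and depth.

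**Figure D5:**
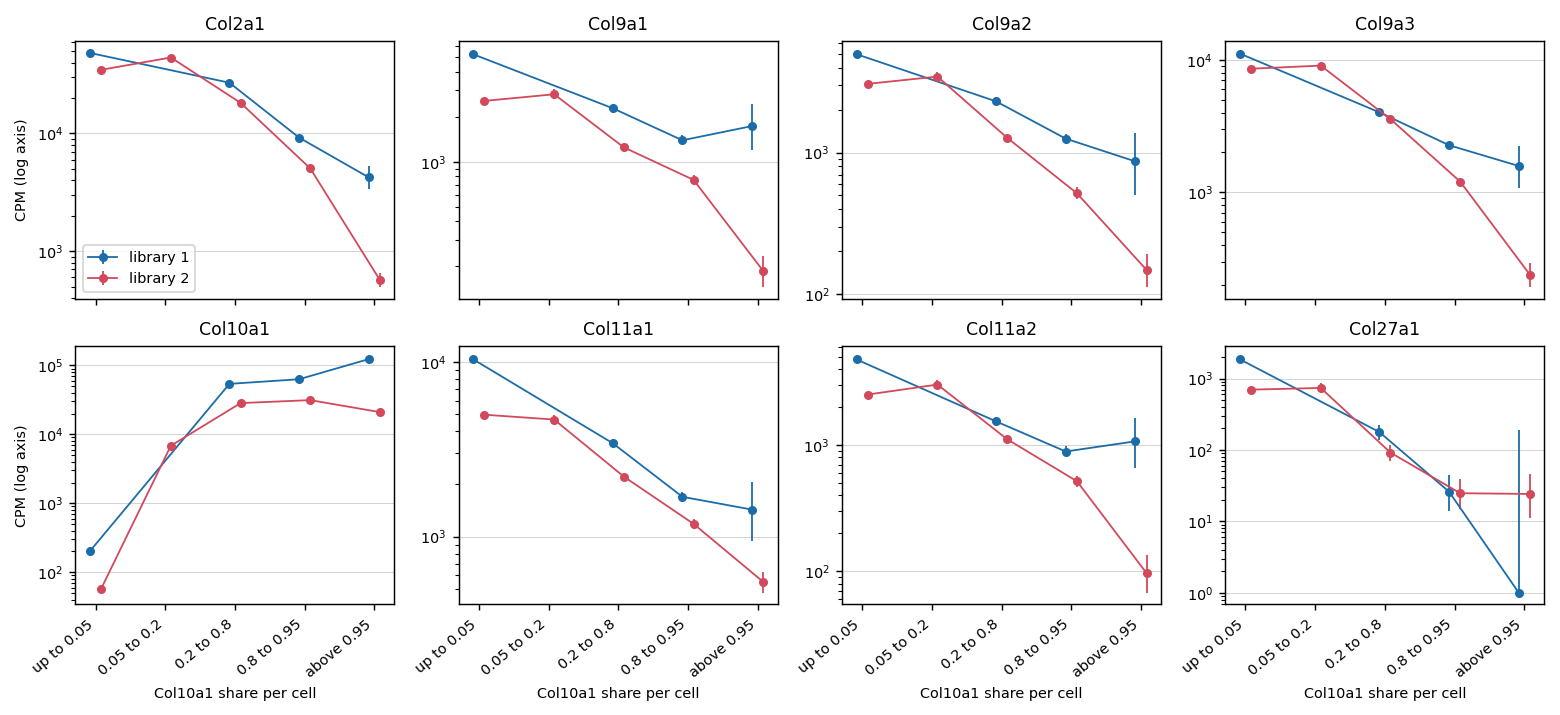
Level of each gene in CPM (log axis) in cells grouped by their Col10a1 share of Col2a1 plus Col10a1 UMIs, for library 1 (blue) and library 2 (red); bars are exact Poisson 95% intervals, and the groups above 0.95 hold 2 and 21 cells. Library 1 has no cell between 0.05 and 0.2, and its Col27a1 value of 0 above 0.95 is drawn at 1. Col27a1 goes from 1861 and 700 CPM in the lowest group to 26.0 and 24.8 CPM between 0.8 and 0.95.

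Some stromal clusters showed Col2a1 or Col10a1 through single cells in a library. In Mmp9-led cells of library 2, 1 cell of 59 held 2240 of the 2400 Col2a1 UMIs, and in Igkc-led cells of that library 1 cell of 29 held 1086 of 1153. Col11a1 was spread wider in Mmp9-led cells. In library 2, 43 of the 59 cells had it and the richest held 393 of 947 UMIs. In library 1, 14 of 35 cells had it and the richest held 158 of 358 UMIs. In Igkc-led cells of library 1, 3 of 11 cells held 99.7% of the 796 Col2a1 UMIs. The S100a9-led cluster, which is led by S100a9 and S100a8, both neutrophil markers, had 1139 of its 1148 Col10a1 UMIs of library 1 in 1 cell. In library 2 the signal of that cluster was spread wider, with 304 Col10a1 UMIs in 22 of 58 cells and 596 Col2a1 UMIs in 28 of 58. No level of these clusters is described as a class level in the text, but their sums are among the 23 behind the correlations over classes below.

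Genes that work on the collagens were counted from 4 lists, to be read against the 5.96% of all genes tested that were higher and the 5.76% that were lower than in osteoblast-like cells, and the 9.49% and 12.8% against P-SSC-like cells. Of 17 tested transcription factors known from collagen genes of chondrocytes, 6 were higher and 2 lower in chondrocyte-like than in osteoblast-like cells, and the list median was 0.36 against 0 over all genes tested. Sox5 and Sox9, partners in switching on Col2a1, rose by 7.28 (SE 0.64, edgeR adjusted p = 3.76e-05) and 5.11 (SE 0.62, edgeR adjusted p = 0.000183) on the log2 scale. Sox6, which works with both, was at 57.2 and 54.0 CPM against 10.7 and 5.76, and Foxa3 at 40.7 and 104 CPM against 0.412 and 0.677. Sp7, the osterix gene of bone formation, fell by 1.51 (SE 0.42, edgeR adjusted p = 0.0403) and Dlx6 by 3.48 (SE 0.66). Against P-SSC-like cells 11 of the 17 were higher and none lower (median 1.86), with Sp7, Sox9, Runx3 and Sox6 foremost.

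Collagen maturation enzymes and chaperones modify and fold the chains in the endoplasmic reticulum. Their list also held Creb3l1, Creb3l2, Mia3 and Sec23a, which do not themselves modify or fold the chains. Of the 22 genes of the list, 2 were higher and 2 lower than in osteoblast-like cells, with a median of 0.41. This is near the background of 5.96% and 5.76%. The collagen prolyl hydroxylase P3h2 rose by 5.37 (SE 0.71, edgeR adjusted p = 0.000198), from 1.65 and 3.05 to 150 and 68.5 CPM, and the collagen galactosyltransferase Colgalt2 stood at 131 and 100.3 CPM against 0 in both libraries. Creb3l1 and Fkbp7 fell by 3.49 (SE 0.52) and 3.40 (SE 0.59). Against P-SSC-like cells 11 of the 22 were higher and none lower, led by the lysyl hydroxylase Plod2 (896 and 684 CPM against 73.4 and 66.7), P3h2, P3h4 and P3h1. Of 10 propeptide and crosslink enzymes, 2 were higher and 4 lower than in osteoblast-like cells (median -1.34), and 2 higher and 3 lower than in P-SSC-like cells. The proteinases Adamts2 and Bmp1, which trim procollagen ends, fell by 5.94 (SE 0.65) and 2.68 (SE 0.40) against osteoblast-like cells, as did Pcolce and Lox, while Pcolce2, an enhancer of that trimming, and Loxl3 rose. Loxl1 fell by 6.44 (SE 0.82) against P-SSC-like cells, and Loxl4 rose there. Of 6 collagen receptors, 1 was higher and 2 lower than in osteoblast-like cells, where Itga1 rose by 4.35 (SE 0.86), Itga11 fell by 5.35 (SE 0.71) and Ddr2 fell by 1.96 (SE 0.42). Against P-SSC-like cells Itga10, the type II collagen integrin, was higher, and Itga11, Ddr2 and Itgb1 were lower.

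The genes whose levels ran most like a member were found over 23 sums of class and library, by the Pearson correlation of log2(CPM + 10). For Col2a1 they were Snorc (0.970), Mia (0.954), Acan (0.952), Hapln1 (0.948) and Matn3 (0.899), which are cartilage matrix or cartilage-derived genes and all stand among the naming markers of the chondrocyte-like class. For Col10a1 they were Loxl4 (0.915), Matn1 (0.899), F5 (0.874), Fxyd3 (0.874) and Fam20c (0.859). Among the members, the 3 Col9 genes and Col2a1 correlated with each other at 0.96 to 0.99, and Col11a1 with Col11a2 at 0.96. Col10a1 correlated with Col2a1 at 0.78 and with Col27a1 at 0.21. The 23 sums come from only 2 libraries. They include those of the Mmp9-led, S100a9-led and Igkc-led clusters, some of which rest on single cells.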

How the data were processed

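Per the labels, the authors aligned 3′ single-cell reads to mm10 with Cell Ranger 6.1.2. The deposited values are whole UMI counts, not normalized, of each feature in each barcode. Barcodes with at least 500 genes, at least 500 UMIs and at most 10% mitochondrial UMIs were kept, as in the methods of the study. Cells were integrated and clustered with Seurat 5.3.0 in R 4.3.3 (3000 variable genes, 15 principal components, resolution 0.8), hematopoietic clusters were removed and the rest was clustered again, with 70 genes (members and lists) held out. A cluster took the name of the list with the highest share of markers detected. This required at least 3 markers and no other list with more markers among the 10 leading genes. The non-hypertrophic name was also refused where Col10a1 or Spp1 was among those 10, and no stromal cluster took a hematopoietic name. Scrublet marked 124 doublets (1.98%) in library 1 and 1 (0.0346%) in library 2, where it did not work, and doublets were not removed.

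UMI counts were summed per class and library. Levels are CPM of all UMIs of the class, with exact Poisson 95% intervals, and shares of cells have exact Clopper-Pearson intervals. Both cover counting error only. Classes were compared with edgeR 4.0.16 (quasi-likelihood test, Benjamini-Hochberg adjustment, threshold 0.05), checked on simulated data, and DESeq2 1.42.0 served as an alternative. The p-values measure the spread between these 2 libraries, which also differ in EGFP. Its biological and technical parts cannot be told apart. Replicate numbers name the library, so that same-numbered class sums come from 1 library, and their deviations correlated at 0.0849 to 0.422 over 10 pairs of classes. Genes named from the lists were those past the threshold, at most 4 per list, comparison and direction by smallest p, and the 5 genes most like Col2a1 or Col10a1. Planned comparisons with a hypertrophic class were not made, because no cluster had the hypertrophic list as its best with 3 or more markers. The members and lists were chosen with earlier results of these data known. Gene coordinates are from GENCODE, on GRCm38.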

Additional observations from a re-analysis of the deposited data

Results flagged for a closer look

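Barcodes that the filters left out held 1027 Col2a1 and 3389 Col10a1 UMIs in library 1 and 632 and 1128 in library 2, which drew attention because no comparison used them. They were 1.65% and 5.63% of the UMIs of these genes in library 1, and 0.368% and 2.13% in library 2.

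EGFP gave 6837 UMIs in kept cells of library 2, which is labelled WT, and 0 in library 1. The level was 5103 CPM in Col10a1-led and 1604 CPM in Tcim-led cells, against 334 CPM in osteoblast-like, 223 CPM in chondrocyte-like and 0.306 CPM in B cell-like cells.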

How the results depend on the processing

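The direction of every member was the same under the alternatives run, and all calls of members but 1 were kept. With members and lists left in the variable genes, 369 genes were higher in chondrocyte-like than in osteoblast-like cells in place of 578, and the edgeR log2 fold change of Col10a1 was 3.97 with an adjusted p of 0.252. The replicate block, with the library as a term, gave 724 genes higher and 674 lower against osteoblast-like cells and changed no call of a member. Leaving out 1 library left 1 sum per class, so those are values with no test.

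Of Col10a1 cells, 84.7% also held Col2a1 in library 1 at 1 UMI or more. In library 2 this was 82.6% at 10 UMIs or more, 74.0% with each cell thinned to 2000 UMIs, and 95.8% without the Igkc-led and S100a9-led clusters. Of Col2a1 cells in library 2, 35.3% held Col10a1 when thinned. Without the Col10a1-led cluster, 41.7% and 17.7% of cells had a Col10a1 share of 0.2 to 0.95, 79.3% of Col10a1 cells in library 1 held Col2a1, and 35.9% and 27.5% of Col2a1 cells held Col10a1. Both exclusions of clusters were chosen after seeing the data, and the cause of these shifts was not tested. In simulated data, 2% of log2 changes of 1, 32% of changes of 2 and 84.7% of changes of 4 were recovered against osteoblast-like cells. Against P-SSC-like cells these were 0.667%, 28% and 81.3%. With 2 libraries, and 19 P-SSC-like cells in library 1, even log2 changes of 2 were mostly missed.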
